A study of Arabidopsis thaliana with 4 samples.

Results

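The genes described here in basal inflorescence stems act in the apoplast, the fluid and wall space outside plant cells: *EGC2* (AT2G18660), *AED1* (AT5G10760) and *LLP1* (AT5G03350). They were chosen from the 156 genes that the authors listed as up-regulated in *msil2/4*, out of 234 genes in both deposited tables, and all 3 members were found there. Because the choice rests on the same contrast, the difference between genotypes is given for them as a description and with no test. RNA came from the basal stem section of mature untreated plants grown in long days, with 2 libraries from the *msil2/4* double mutant and 2 libraries from Col-0 wild type. The mutant was a cross of *msil2-1* and *msil4-1*, T-DNA insertion lines in genes for Musashi-like RNA-binding proteins, and is called a knockdown in the labels. These libraries represent 1 mutant line, and nothing in the labels says how many stems went into a library. The replicates are called biological in the checklist supplied with the paper. The tables hold RPKM values (read numbers divided by transcript length and by the mapped reads of the library), only for genes that passed the limits of the authors. *MSIL2* and *MSIL4* are in neither table, so the genotype labels could not be checked on them. The same holds for 24 markers of fiber and xylem, phloem, epidermis, photosynthetic tissue and senescence, none of which was listed, so the tissue could not be checked either.

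Systemic acquired resistance (SAR) is the state in which a local infection primes distant leaves against later attack. Salicylic acid and the regulators EDS1 and NPR1 act in it, and many of its products are secreted. EGC2 is the plant natriuretic peptide PNP-A, a small secreted protein distantly related to expansins and linked to water and ion balance. AED1 is an aspartyl protease whose accumulation in the apoplast after infection depends on EDS1, and which has been described as a brake on systemic immunity. LLP1 is a legume-lectin-like protein of the apoplast that promotes systemic immunity. The deposited table names it LLP.

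In the RefSeq annotation of the TAIR10.1 assembly, *EGC2* lies on the minus strand of chromosome 2 from 8089411 to 8091736, with 3 exons. *AED1* lies on the minus strand of chromosome 5 from 3400322 to 3402389, with 2 exons. *LLP1* lies on the minus strand of chromosome 5 from 815610 to 816670 and is a single exon without introns. Each has 1 annotated transcript, of 2106 nt for *EGC2*, 1968 nt for *AED1* and 1061 nt for *LLP1*. The proteins differ in size, with 130 residues for EGC2, 464 for AED1 and 274 for LLP1.

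The 250 bases before each annotated transcript start, from RefSeq TAIR10.1, are printed 5′ to 3′ because TGA and WRKY transcription factors, which act in salicylic acid responses, bind short motifs in promoters. Capitals mark matches on either strand to TGACG, the TGA-factor core, and TTGAC, the W-box core bound by WRKY factors. The 2 cores share 4 bases and can overlap.
EGC2, chr2:8091737-8091986, minus strand: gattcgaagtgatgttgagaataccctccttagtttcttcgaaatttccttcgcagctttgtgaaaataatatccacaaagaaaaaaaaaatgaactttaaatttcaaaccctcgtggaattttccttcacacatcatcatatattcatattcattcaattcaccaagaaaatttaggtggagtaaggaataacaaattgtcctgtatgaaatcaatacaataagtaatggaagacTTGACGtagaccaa
AED1, chr5:3402390-3402639, minus strand: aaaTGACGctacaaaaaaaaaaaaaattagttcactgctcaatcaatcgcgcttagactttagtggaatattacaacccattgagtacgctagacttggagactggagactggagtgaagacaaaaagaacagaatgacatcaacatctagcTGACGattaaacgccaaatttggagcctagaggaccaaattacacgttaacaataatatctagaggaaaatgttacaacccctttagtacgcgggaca
LLP1, chr5:816671-816920, minus strand: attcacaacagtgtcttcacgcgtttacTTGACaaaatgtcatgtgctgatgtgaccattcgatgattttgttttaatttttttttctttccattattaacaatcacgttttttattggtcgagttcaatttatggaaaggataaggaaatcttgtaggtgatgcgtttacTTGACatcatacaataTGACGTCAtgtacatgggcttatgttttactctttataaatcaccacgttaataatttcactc

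TGACG was present in the window of all 3 genes, once in *EGC2* and at 2 positions each in *AED1* and *LLP1*. Of 27443 promoter windows of the same length, 18.8% held it, as did 25.2% of the 155 windows of up-regulated genes. In *LLP1* both matches, one on each strand, overlap in the palindrome TGACGTCA, 56 to 63 bases before the start. This 8-base sequence was present in 139 windows, or 0.507%, and in 4 of the 155 windows of up-regulated genes, or 2.6%. The W-box core was found once in *EGC2*, at 2 positions in *LLP1* and not in *AED1*, against 44.8% of all windows and 60.0% of the windows of up-regulated genes with at least 1 match. In *EGC2* the cores overlap as TTGACG, 9 to 14 bases before the start, a sequence in 7.19% of all windows and 9.7% of the windows of up-regulated genes. The windows include the members themselves, and a match is a description of the letters, with no statement on binding.

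**Figure D1:**
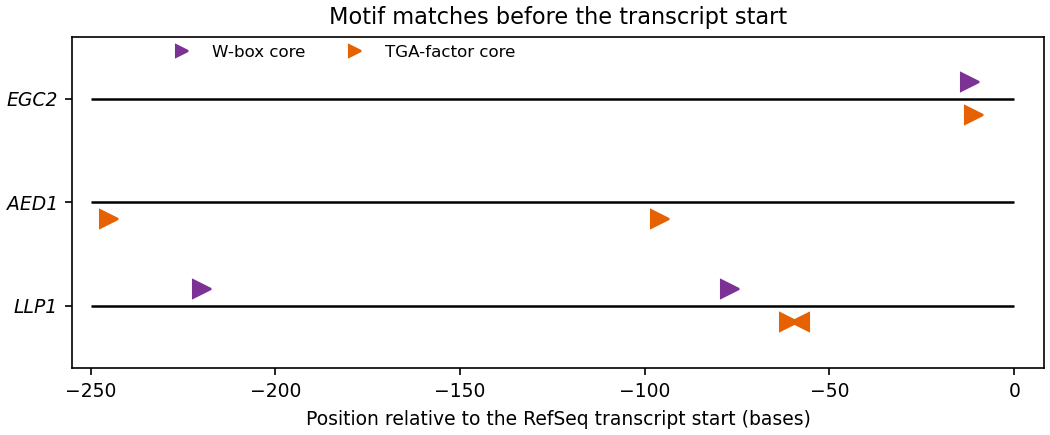
Motif matches in the 250 bases before the annotated start of *EGC2*, *AED1* and *LLP1*, with position in bases on the x axis. Triangles mark matches to the W-box core (above each line) and the TGA-factor core (below), pointing right for the strand of the gene and left for the other strand. Each gene has at least 1 TGA-factor core, and *AED1* has no W-box core in this window.

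*AED1* was the most abundant of the 3 transcripts. It was at 227.95 and 188.94 RPKM in the *msil2/4* libraries, against 20.16 and 19.04 RPKM in the Col-0 libraries. The replicates lay close together in both genotypes, and the lower *msil2/4* library was 9.37-fold above the higher Col-0 library. The means were 208 ± 27.6 RPKM in *msil2/4* and 19.6 ± 0.792 RPKM in Col-0 (SD, n = 2 each), a ratio of 10.6. On the scale of log2(RPKM + 1), on which all differences below are given and which understates the change of low genes, the difference was 3.34 (standard error 0.32 from limma).

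*EGC2* had the lowest level of the 3 in Col-0 and the largest ratio of means. It was at 37.72 and 17.53 RPKM in the *msil2/4* libraries, against 1.31 and 0.80 RPKM in the Col-0 libraries. Both *msil2/4* libraries were above both Col-0 libraries, the lowest by 13.4-fold over the highest, but they differed from each other by 2.15-fold. The means were 27.6 ± 14.3 RPKM in *msil2/4* and 1.05 ± 0.361 RPKM in Col-0 (SD, n = 2 each), a ratio of 26.2. The log2 difference was 3.72 (standard error 0.46 from limma), and 4.52 with a pseudocount of 0.1 RPKM in place of 1.

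*LLP1* was the least uniform of the 3 in the mutant. It was at 32.14 and 88.14 RPKM in the *msil2/4* libraries, against 6.28 and 8.44 RPKM in the Col-0 libraries. The groups did not overlap, and the lower *msil2/4* library was 3.81-fold above the higher Col-0 library. The means were 60.1 ± 39.6 RPKM in *msil2/4* and 7.36 ± 1.53 RPKM in Col-0 (SD, n = 2 each), a ratio of 8.17. The log2 difference of 2.71 (standard error 0.55 from limma) was 2.0 without *msil2/4* replicate 2 and 3.43 without *msil2/4* replicate 1. All 3 genes had groups that did not overlap, as had 98.7% of the up-regulated table, so this order is what the table itself selects for. In bulk stem RNA, more cells that express a gene and more RNA per cell cannot be told apart.

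**Figure D2:**
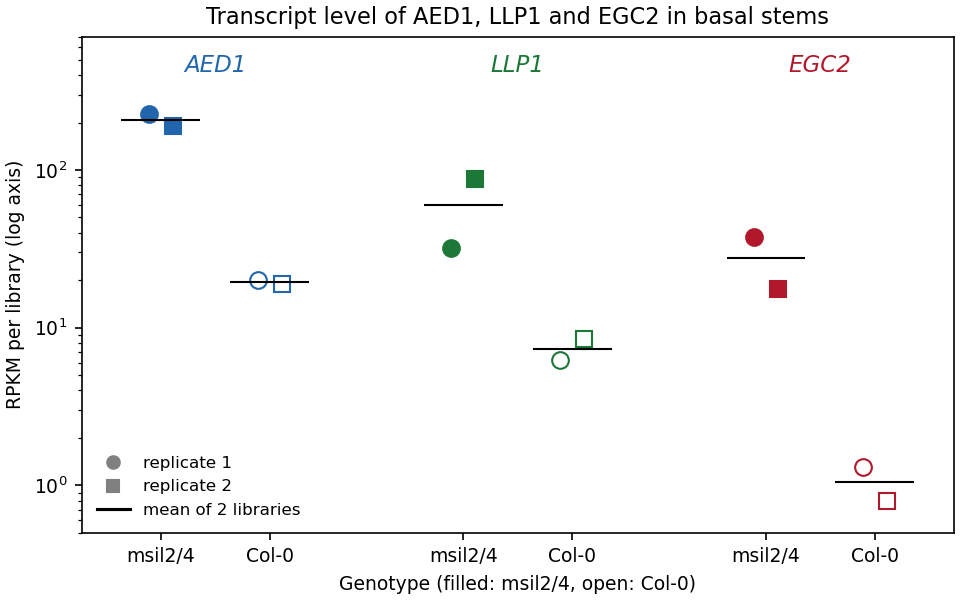
RPKM of *AED1*, *LLP1* and *EGC2* in each library, on a log axis. Filled symbols are *msil2/4* and open symbols Col-0, circles are replicate 1, squares are replicate 2 and bars are means of 2 libraries. *AED1* replicates nearly coincide, while the *msil2/4* replicates of *LLP1* differ 2.74-fold and those of *EGC2* 2.15-fold in the opposite order.

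RPKM is scaled by transcript length, so levels can be set side by side between genes, but the level of *EGC2* and its ratios to the others rest on the length the authors used, which is not given in the sources used here. In Col-0 the order was *AED1*, *LLP1*, *EGC2*, and no library of one gene overlapped with that of the next. In *msil2/4* *AED1* stayed above the others, while the libraries of *LLP1* (32.14 and 88.14 RPKM) and *EGC2* (37.72 and 17.53 RPKM) overlapped. *AED1* was 6.04 and 10.8 times as abundant as *EGC2* in the *msil2/4* libraries, against 15.4 and 23.8 times in the Col-0 libraries. *LLP1* was 0.852 and 5.03 times as abundant as *EGC2* in the *msil2/4* libraries, against 4.79 and 10.6 times in the Col-0 libraries. The ratio of *AED1* to *LLP1*, 7.09 and 2.14 in the *msil2/4* libraries, against 3.21 and 2.26 in the Col-0 libraries, spanned the Col-0 range. Among the 156 up-regulated genes, *AED1* ranked 10 by mean RPKM in *msil2/4* and 12 in Col-0, and *LLP1* ranked 30 in *msil2/4* and 33 in Col-0. *EGC2* ranked 61 in *msil2/4* and 117 in Col-0. By log2 difference, *EGC2*, *AED1* and *LLP1* ranked 25, 34 and 48, each above the median of the table, which was 2.03. These ranks depend on the pseudocount. They were 28, 49 and 58 with 0.1 RPKM, 27, 50 and 61 with 0.01 RPKM, and 25, 46 and 56 by the authors' values per genotype.

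The replicates of *EGC2* and *LLP1* differed in opposite directions. Between *msil2/4* replicates, replicate 2 minus replicate 1 was -1.06 for *EGC2*, -0.27 for *AED1* and 1.43 for *LLP1* on the log2(RPKM + 1) scale. In Col-0 the gaps had the same signs but were smaller, at -0.36 for *EGC2*, -0.08 for *AED1* and 0.37 for *LLP1*. The median absolute gap over the 156 up-regulated genes was 0.44 in *msil2/4* and 0.40 in Col-0. In *msil2/4*, 18 of those genes had a larger gap than *LLP1*, 27 a larger gap than *EGC2* and 98 a larger gap than *AED1*. In Col-0, 84 had a larger gap than *LLP1*, 90 than *EGC2* and 139 than *AED1*. Neither *msil2/4* library was the higher one for all 3 genes.

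**Figure D3:**
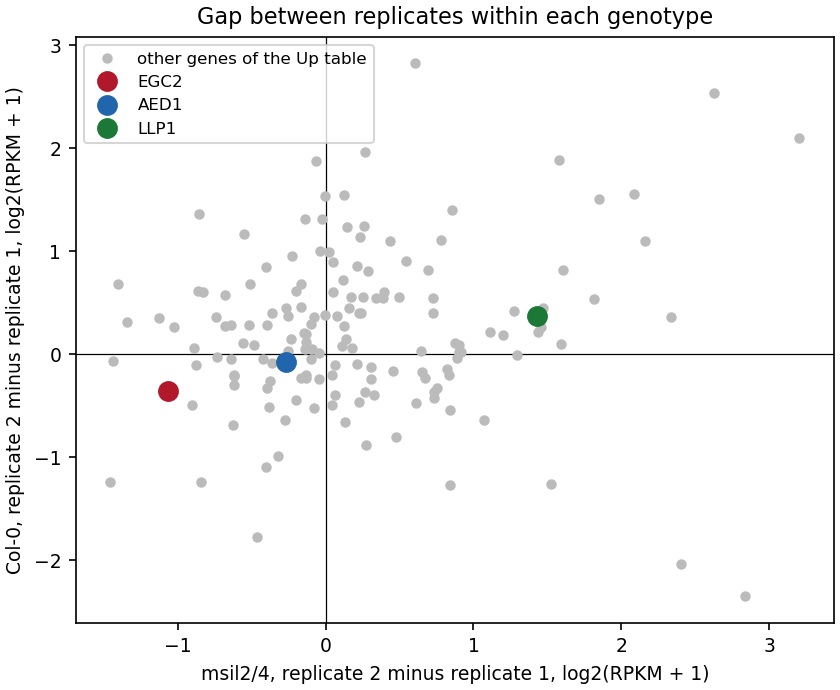
Replicate 2 minus replicate 1 on the log2(RPKM + 1) scale in *msil2/4* (x axis) and in Col-0 (y axis) for each of the 156 up-regulated genes, with *EGC2*, *AED1* and *LLP1* colored. *AED1* lies near the origin, *EGC2* at -1.06 and *LLP1* at 1.43 on the x axis.

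The listed genes with the nearest pattern were found by the Euclidean distance between log2(RPKM + 1) values, centered on each gene's mean over the 4 libraries. *AED1* was nearest to *DLO1* (AT4G10500), a salicylic acid hydroxylase gene, at a distance of 0.16, where the median distance of *AED1* to up-regulated genes was 1.58. *DLO1* was at 102.16 and 85.52 RPKM in the *msil2/4* libraries, against 9.17 and 9.36 RPKM in the Col-0 libraries, with a log2 difference of 3.20. Its profile followed that of *AED1* at a level below it in every library.

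Next for *AED1* came AT3G49340, annotated as a cysteine protease-like protein, at 0.46, and the wall protein gene *PELPK1* (AT5G09530) at 0.57. For *EGC2* the nearest were the peroxidase gene *PER22* (AT2G38380) at 0.56, AT3G49340 at 0.69 and *AED1* itself at 0.70, where the median distance to up-regulated genes was 2.08. *PER22* was at 24.76 and 10.78 RPKM in the *msil2/4* libraries, with 0.28 RPKM in Col-0 replicate 2 and a listed 0 in Col-0 replicate 1. *PER22* and *EGC2* were thus both higher in *msil2/4* replicate 1.

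*LLP1* was nearest to *APY5* (AT1G14250), annotated as an apyrase, at 0.46, to the jacalin lectin gene *JAL34* (AT3G16460) at 0.59 and to AT1G59930, annotated as a MADS-box family protein, at 0.67. *JAL34* was at 16.27 and 59.91 RPKM in the *msil2/4* libraries, against 1.88 and 3.18 RPKM in the Col-0 libraries. These neighbors shared with *LLP1* the higher value in *msil2/4* replicate 2. *LLP1* was only the neighbor of rank 82 of *EGC2* and rank 54 of *AED1* among the listed genes. With 4 libraries and genes selected for the same contrast, these distances describe the libraries and carry no test.

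**Figure D4:**
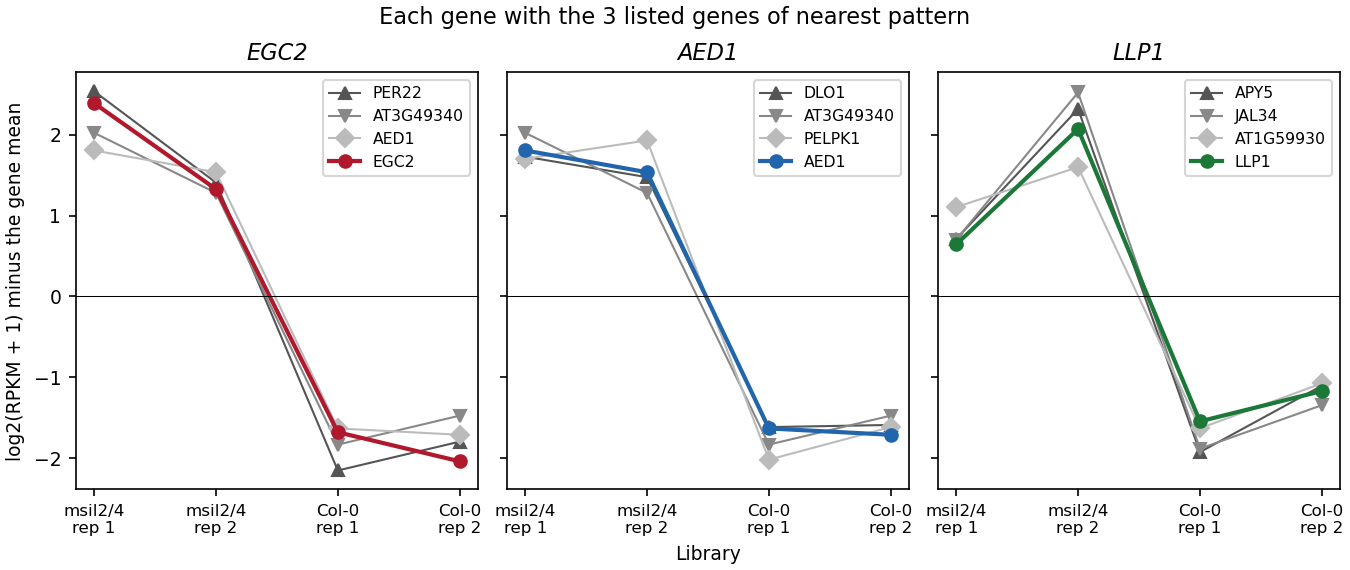
Log2(RPKM + 1) minus the gene mean in each of the 4 libraries for *EGC2*, *AED1* and *LLP1* (colored) and the 3 listed genes nearest to each (grey). Lines only join values of one gene. *DLO1* nearly coincides with *AED1*, and the *LLP1* group is highest in *msil2/4* replicate 2.

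The other genes of the pathway were taken from lists of 44 salicylic acid and SAR genes. Of these, 10 were in the up-regulated table, 1 was in the down-regulated table and 33 were in neither. The 156 up-regulated and 78 down-regulated genes equal 0.566% and 0.283% of the number of annotated protein-coding genes, 27562. Listed genes were not restricted to protein-coding ones, and 155 of the 156 up-regulated genes had a coding model. The number of genes that the authors tested is not given in the sources used here. All 11 listed genes passed limma at an adjusted p under 0.05, 10 higher and 1 lower in *msil2/4*, but so did nearly every listed gene, with 65.8% of the 234 higher and 33.3% lower. The median log2 difference of the 10 was 2.53, against 2.03 over the up-regulated table. The lists were drawn up with earlier results of these data known, so these counts, shares and medians are descriptions and no test of enrichment.

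Most of the listed genes were on the list of output genes, which includes the salicylic acid hydroxylase gene *DLO1*. Because of how the lists were drawn up, the split between them is a description and no result about the pathway. Of 17 salicylic acid-responsive output genes, 8 were higher in *msil2/4* (*PR1*, *PR5*, *DLO1*, *DMR6*, *WRKY38*, *WRKY46*, *WRKY51* and *WRKY62*), *WRKY18* was lower and 8 were in neither table. Of 17 genes of salicylic acid synthesis and perception, only *PBS3* (AT5G13320), an enzyme gene of salicylic acid synthesis, was listed. It was at 7.32 and 12.45 RPKM in the *msil2/4* libraries, against 0.89 and 2.33 RPKM in the Col-0 libraries (log2 difference 2.08, adjusted p = 0.00762 from limma). Of 10 genes of SAR signal generation and transport, only the lipid transfer-like gene *EARLI1* (AT4G12480) was listed. It was at 42.28 and 39.44 RPKM in the *msil2/4* libraries, against 4.44 and 5.65 RPKM in the Col-0 libraries (log2 difference 2.80, adjusted p = 0.00307 from limma). *PBS3* and *EARLI1* were called by the authors on these libraries, so these p-values are no independent evidence.

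*EDS1* and *NPR1*, and the pipecolic acid pathway genes *ALD1* and *FMO1*, were in neither table, so their values were not analysed here and they were not shown to be unchanged. On the log2(RPKM + 1) scale, *EGC2* and *AED1* had larger differences than all 11 listed genes of these lists except *PR1*, at 7.31. *LLP1*, at 2.71, lay between *EARLI1*, at 2.80, and *WRKY38*, at 2.54. By ratio of means, *EGC2* and *AED1* kept this place, but *LLP1*, at 8.17, was above *EARLI1*, at 8.10, and *PR5*, at 7.18. By the authors' values per genotype, the ratio was 7.11 for *LLP1*, just below that of *EARLI1* (38.5 against 5.37 RPKM). Smaller pseudocounts can also change the order, since they raise genes with a low value such as *WRKY38* (0.23 RPKM in wild-type replicate 1). *WRKY62* did not pass with pseudocounts of 0.1 or 0.01 RPKM (limma adjusted p = 0.0706 and 0.0873). It also did not pass when Col-0 replicate 1 was left out (limma adjusted p = 0.0662), and its adjusted p ran from 0.00219 to 0.0873 over all settings other than the replicate block, which gave 6.09e-06.

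**Figure D5:**
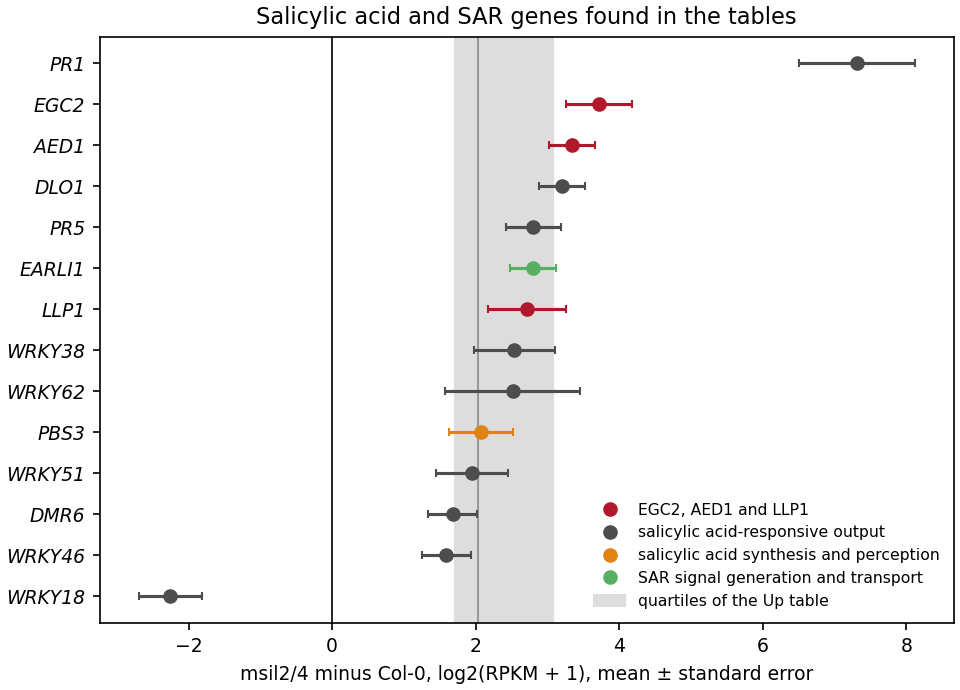
Difference between *msil2/4* and Col-0 on the log2(RPKM + 1) scale, with its standard error from limma (n = 2 libraries each), for *EGC2*, *AED1*, *LLP1* and the 11 listed genes of the salicylic acid and SAR lists. The grey band spans the quartiles of the up-regulated table, 1.71 to 3.08, and *PR1*, *EGC2*, *AED1* and *DLO1* lie above it.

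The only relative of EGC2 found by protein alignment (BLAST E-value limit of 1e-05) was AT4G30380, with 40.8% identity over 130 aligned positions. AED1 was closest to the product of its neighbor on the chromosome, AT5G10770, with 65.5% identity. That gene lies 631 bp upstream of *AED1*. LLP1 was closest to the lectins AT3G16530, AT1G53080 and AT3G15356, with 65.8%, 64.1% and 62.9% identity. None of the 1, 62 and 49 relatives of EGC2, AED1 and LLP1 was in either table. The 234 genes of both tables equal 0.849% of the number of annotated protein-coding genes. A count of 0 is near that background and is no result about the relatives, whose values were not analysed here. The genes flanking each member were in neither table as well.

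Reads of 75 nt could be shared only with similar sequences. In alignments of at least 75 nt, the *AED1* and *LLP1* transcripts matched other sites of the genome with at most 76.0% and 76.2% identity. These are identities over whole alignments, up to 818 and 865 nt long, and a stretch of 75 nt within them can be higher. The *EGC2* transcript as annotated has 1621 of its 2106 nt after the coding part, and it had 75 such matches elsewhere, with up to 94.3% identity, none of which touched the coding part. Its RPKM therefore depends on the transcript model, and the length used by the authors is not given in the sources used here. *LLP1* overlaps AT5G03345, on the other strand, by 50 bp.

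At the 30000000 reads that the labels give, and if all were mapped, the *EGC2* values would equal about 2383 and 1108 reads in the *msil2/4* libraries, against 82.8 and 50.5 reads in the Col-0 libraries, over the annotated transcript. Over the coding part alone they would equal 445 and 207 reads in the *msil2/4* libraries, against 15.4 and 9.4 reads in the Col-0 libraries. The corresponding values over the transcript were at least 1124 reads for *AED1* and at least 199.9 reads for *LLP1* in every library. The Col-0 level of *EGC2* thus rests on the fewest reads of the 3. These are approximate, since mapped reads per library are not part of the tables.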

How the data were processed

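Stem mRNA of 4 libraries, 2 per genotype, was analysed from 2 tables of called genes. Per the labels and the paper, the authors aligned single-end reads of 75 nt to TAIR10 with TopHat2 2.0.7 and Bowtie2 2.3.4 and quantified transcripts with Cufflinks 2.2.1. The authors deposited RPKM values per library and per genotype for genes past a log2 fold change of 1.5 in Cuffdiff and a limit of 0.05, which the table headings call a P value and the paper a false discovery rate. The paper describes removing transcripts under 1 RPKM in a library, but 64 of the 234 deposited genes have a library under 1 RPKM and 4 have a value listed at 0, so how that filter was applied is unclear. Their log2 fold change column, deposited beside the RPKM values, holds their own comparison and was not used. The library kit is NEBNext Ultra II Directional in the labels and TruSeq stranded in the paper. Whether counting used strand is not given in the sources used here.

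Genotypes were compared on log2(RPKM + 1) with limma 3.58.1 in R 4.3.3 (two-sided), with Benjamini-Hochberg adjustment over all 234 genes, and the procedure was tested on simulated data. The genes were selected by the authors on these libraries, so no p-value here is independent evidence. With 2 libraries per genotype the smallest two-sided exact permutation p is 0.333. Counts were not recovered, since mapped reads are not given and the values carry 2 decimals, so no count test or counting interval was possible. Of 38 values under 0.5 RPKM, 7 came within 0.1 of a whole read at 30000000 reads, where an even spread gives 20%. Rounding and the unknown depth can hide whole reads, so this check cannot decide whether they are there. The members, gene lists and rules were chosen with earlier results of these data known. Named genes were the members, every list gene in a table, the 3 nearest patterns and up to 3 closest relatives per member, with further list genes named as absent. Gene models and sequences are from RefSeq for TAIR10.1, which holds all 234 identifiers, and the deposited tables give no coordinates. Coding sequences were translated and aligned with BLAST 2.17.0. Promoter windows hold the 250 bases before the start, and transcribed bases were left out. Alternatives were pseudocounts, a filter, the authors' value per genotype, the replicate block, each library left out and a variance trend.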

Additional observations from a re-analysis of the deposited data

How the results depend on the processing

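The spread between replicates, 1 SD of the log2 values pooled over both genotypes, was 0.56 for *EGC2*, 0.14 for *AED1* and 0.74 for *LLP1*. *AED1* and *LLP1* moved by less than this with the other pseudocounts and the authors' values. *EGC2* moved by more, to 4.52 and 4.64 with pseudocounts of 0.1 and 0.01 RPKM, which is what a smaller pseudocount does to a gene near 1 RPKM. As the log2 ratio of the authors' values per genotype, without a pseudocount, *EGC2* was at 4.56. Those values are not the means of the libraries (26.2 against 27.6 RPKM in *msil2/4*, 1.11 against 1.055 RPKM in Col-0). With each library left out in turn, the log2 difference ranged from 3.18 to 4.25 for *EGC2*, from 3.20 to 3.48 for *AED1* and from 2.0 to 3.43 for *LLP1*, with the lone library assumed to vary like the other genotype. With 2 libraries these shifts are fixed by the gap between replicates and are no sign of stability. The order *EGC2*, *AED1*, *LLP1* was not kept without *msil2/4* replicate 1, where *LLP1* was at 3.43, *AED1* at 3.20 and *EGC2* at 3.18. A replicate block cannot move the differences in this balanced design, and *EGC2* stayed at 3.72. With the block the standard error was 0.51 for *EGC2*, *AED1* and *LLP1* alike, so it does not reflect the spread of each gene. The block gave 156 genes higher in *msil2/4*, against 154 without it, among them *XTH16* and *NATA1*, whose groups overlapped. The labels share only a number between genotypes, the correlation of replicate deviations over 234 genes was 0.07, and the samples were not treated as paired. Of the 44 salicylic acid and SAR genes, 9 or 10 were higher and 1 was lower under the alternatives run for counts, which leave out the authors' values per genotype, *WRKY62* being the gene lost, and over all genes 116 to 156 were higher and 72 to 78 lower, the lowest counts with the filter at a mean of 5 RPKM, which left 190 genes. The low Col-0 level of *EGC2* and 2 libraries per genotype limit the precision.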
